A study of Mus musculus with 4 samples.

Results

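The genes described here are the metalloproteases, plasminogen activators and their inhibitors of HT-22, a mouse cell line that was derived from hippocampus and immortalized. They were chosen by symbol: matrix metalloproteases (Mmp), ADAM, ADAMTS and ADAMTS-like genes, the tissue inhibitors Timp, and the single genes Plau, Plaur, Plat, Serpine2, Reck and Masp1. This gave 53 of the 24689 genes of the deposited table; Serpinb2, also sought, is not analysed here. RNA was sequenced from 2 libraries of cells with induced Pja2, titled Pja2-pb, and from 2 libraries of control cells, called uninduced in one label and WT in another. All 4 came from cells at passages 21 to 24. How Pja2 was induced, what pb stands for, whether both groups came from 1 line and whether the replicates were separate cultures is not given in the sources used here, so p-values measure only the spread between these libraries. Pja2, which encodes a RING-type ubiquitin ligase, had 54830 and 54244 normalized reads in induced cells, against 6167 and 5881 in control cells.

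Matrix metalloproteases are zinc endopeptidases, secreted or anchored in the membrane, that are made as inactive precursors and cut collagens and other matrix proteins once activated. ADAMs are membrane proteins that release the outer parts of growth factors, Notch and adhesion molecules, while some of them lack a working active site and act in adhesion. ADAMTS enzymes are secreted and cut proteoglycans or process procollagens, and ADAMTS-like proteins share their repeats without the protease domain. Plasminogen activators turn plasminogen into plasmin, and TIMPs, Reck and serpins hold these enzymes in check. In the hippocampus the family is known for work on synaptic plasticity, shedding of the amyloid precursor and the matrix around neurons.

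Values are normalized reads, the deposited log2 values turned back to the linear scale. The libraries held 25787452 to 35262653 reads. A gene was tested with limma when it averaged at least 1 CPM (reads scaled to library size), and the threshold was a Benjamini-Hochberg adjusted p of 0.05 over all 13276 tested genes. Among these, 276 had higher and 178 had lower values in induced cells at that threshold, and leaving out 1 library gave 113 to 204 and 78 to 136. The neuron markers gave a mixed check of the cell label, with 5 of the 9 listed measured. Tubb3, Syn1 and Dlg4 lay between 574 and 2385 normalized reads. Stmn2 had at most 16.3 in any library, and Nefl was at 0 in 3 of the 4 libraries. Fibroblast markers, 7 of 7 measured, summed to 316962 and 317777 normalized reads in induced cells and to 371911 and 324261 in control cells. Most of that sum came from Col1a2, Col1a1 and Col3a1, while Lum had at most 13.7 in any library. Of the 6 tested, 2 fell (Dcn and Col3a1) and 4 did not pass. Endothelial markers, 4 of 5 measured, summed to between 15.8 and 31.4. Microglial markers, 7 of 8 measured, summed to 1774 and 1872 in induced cells and 2330 and 1968 in control cells, most of it from Tmem119, while Aif1 and Cd68 had higher values in induced cells (by 0.55 with an adjusted p of 0.362 and by 0.59 with an adjusted p of 0.219, on the log2 scale) and Ptprc was at 0 in 3 libraries. Astrocyte markers, 5 of 6 measured, summed to 3445 and 4271 in induced cells and 3368 and 3022 in control cells. Nearly all of that sum came from Slc1a3 (3426 and 4237 in induced cells, 3302 and 2956 in control cells). Gfap, S100b and Slc1a2 had at most 9.79 in any library. The astrocyte marker Aldh1l1 had 5.44 and 14.8 in induced cells against 57.8 and 65.3 in control cells (limma adjusted p = 0.0618, called with limma voom). It reached the filter through its control libraries alone, since both induced libraries lay under 1 CPM. Oligodendrocyte markers, 2 of 6 measured, summed to 109 and 89.0 in induced cells and 39.0 and 73.7 in control cells, and epithelial markers, 3 of 5 measured, to between 217 and 334 over the 4 libraries. The part of these cell types in the results was not tested.

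Of the 53 genes, 35 reached the filter and were tested. In induced cells 3 of them were higher (Mmp19, Adamts7 and Timp1) and 6 were lower (Masp1, Adamts5, Adam22, Adamts1, Plau and Adamtsl5). That is 8.57% of the 35 higher and 17.1% lower, beside 2.08% and 1.34% of all tested genes, and 25.7% called in either direction beside 3.42%. The members were chosen with earlier results of these data known, so these shares are no test of the family. Of the 32 tested members off chromosome 16, 3 were higher and 3 lower. The median log2 fold change of the 35 was -0.0042, and that of all tested genes was 0.0025. Without induced replicate 1, induced replicate 2, control replicate 1 or control replicate 2, limma called 1, 0, 2 and 1 of them higher and 4, 4, 3 and 5 lower. At the count of 0, without induced replicate 2, log2 fold changes were 0.57 for Adamts7, 0.59 for Mmp19 and 0.47 for Timp1. Without the filter 1 was called higher and 4 lower. The libraries of the groups did not overlap for 20 of the 35 (57.1%), beside 51.3% of all tested genes. As this is bulk RNA, fewer cells that express a gene and less RNA per cell cannot be told apart.

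**Figure D1:**
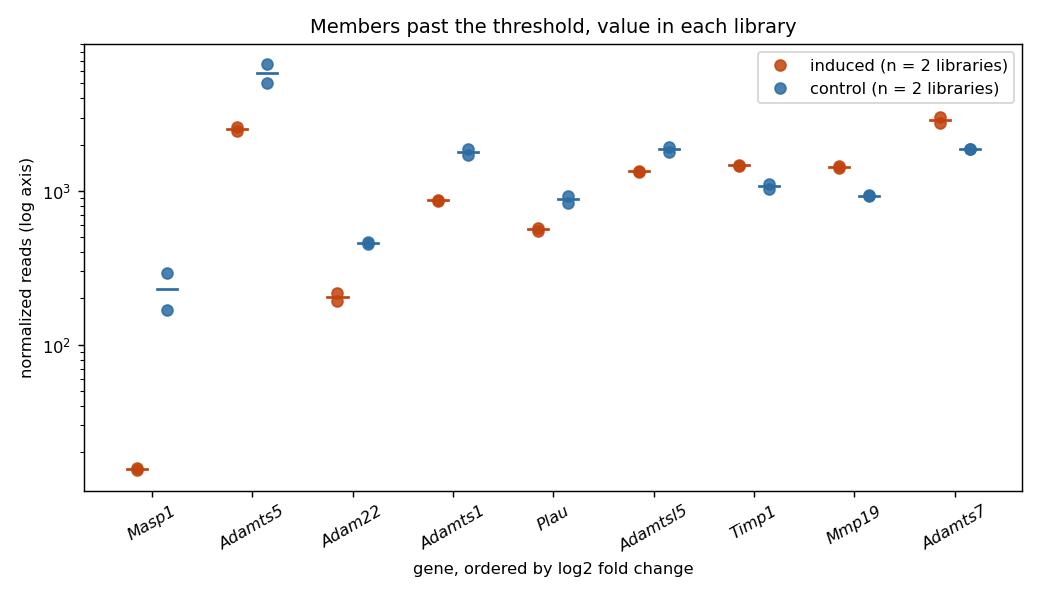
Normalized reads (log axis) of the 9 genes past the threshold in each library, induced to the left of control for each gene; dots are libraries (n = 2 per group) and lines are group means. Masp1 has the widest gap, with 15.2 and 15.8 in induced cells against 291.7 and 167 in control cells.

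RefSeq holds a promoter for 33 of the 53 genes in the table used here, 4 of them past the threshold. The 250 bases before their starts (build GRCm38.p6) are shown because these are the called genes whose control regions can be set side by side: Adamts1, Adam22 and Adamtsl5 fell and Timp1 rose. Capitals mark any match, on either strand, to a TATA box (TATAAA), a GC box (GGGCGG), an AP-1 site (TGANTCA) or a cAMP response element (TGACGTCA).
Adamts1, chr16:85803114-85803363, minus strand: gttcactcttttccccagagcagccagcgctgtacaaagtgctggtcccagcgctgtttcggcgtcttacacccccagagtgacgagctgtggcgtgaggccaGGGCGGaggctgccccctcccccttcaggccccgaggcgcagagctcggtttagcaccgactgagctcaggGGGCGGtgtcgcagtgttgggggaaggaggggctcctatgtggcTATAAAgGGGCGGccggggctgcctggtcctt
Adam22, chr5:8368161-8368410, minus strand: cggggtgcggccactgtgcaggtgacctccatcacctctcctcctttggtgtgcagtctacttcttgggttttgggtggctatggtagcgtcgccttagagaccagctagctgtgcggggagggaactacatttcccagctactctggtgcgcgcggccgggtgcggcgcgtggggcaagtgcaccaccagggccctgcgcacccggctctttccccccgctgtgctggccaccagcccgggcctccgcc
Adamtsl5, chr10:80348449-80348698, minus strand: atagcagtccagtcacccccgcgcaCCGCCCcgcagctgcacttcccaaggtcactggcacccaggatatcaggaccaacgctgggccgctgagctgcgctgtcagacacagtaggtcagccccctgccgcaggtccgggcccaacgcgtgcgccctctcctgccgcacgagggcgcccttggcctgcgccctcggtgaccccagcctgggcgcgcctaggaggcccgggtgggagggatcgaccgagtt
Timp1, chrX:20869916-20870165, plus strand: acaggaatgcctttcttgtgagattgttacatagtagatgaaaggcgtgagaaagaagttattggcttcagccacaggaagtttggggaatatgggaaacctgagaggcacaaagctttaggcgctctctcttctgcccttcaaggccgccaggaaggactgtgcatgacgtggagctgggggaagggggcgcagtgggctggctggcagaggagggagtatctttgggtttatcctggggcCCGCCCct
Adamts1 held 1 TATA box, 32 bases before the start, and 3 GC boxes; Adamtsl5 and Timp1 held 1 GC box each, and Adam22 held no match. AP-1 letters were found in the promoters of 2 of the 33 genes, Plaur and Adam19, and in 6.75% of all 32817 promoters. The TATA letters were in those of 2 (Adamts1 and Adamtsl2) and in 12.4% of all, the GC box in those of 23 and in 32.7% of all, and the cAMP response element in 0 and in 1.55%. A gene was counted when any of its promoters matched, whereas the shares of all are per promoter, so the counts and shares are not in like units. A match of letters is not a site of binding.

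Levels of different genes were compared as normalized reads per kilobase of exon (GENCODE M21). Timp2 had the highest level, with 7178 and 7178 normalized reads per kilobase in induced cells and 6105 and 5988 in control cells. Mmp14 followed with 2659 and 2574 in induced cells and 2446 and 2585 in control cells, then Mmp2 with 2078 and 2137 in induced cells and 2080.4 and 2001 in control cells. Timp2 and Mmp14, whose proteins join with the Mmp2 precursor at the cell surface, thus stood at the top of the order together with Mmp2 itself. Next came Adam9, between 1906 and 1937 in all 4 libraries, then Timp1 and Adam10. The ranges of Mmp14 and Adam9 did not touch those of their neighbours, while Timp1 (1165 to 1667) and Adam10 (839 to 1569) overlapped. Adam15 lay at 715 to 784, and below it Timp3, Mmp11 and Adam17 had overlapping ranges between 436 and 584.

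**Figure D2:**
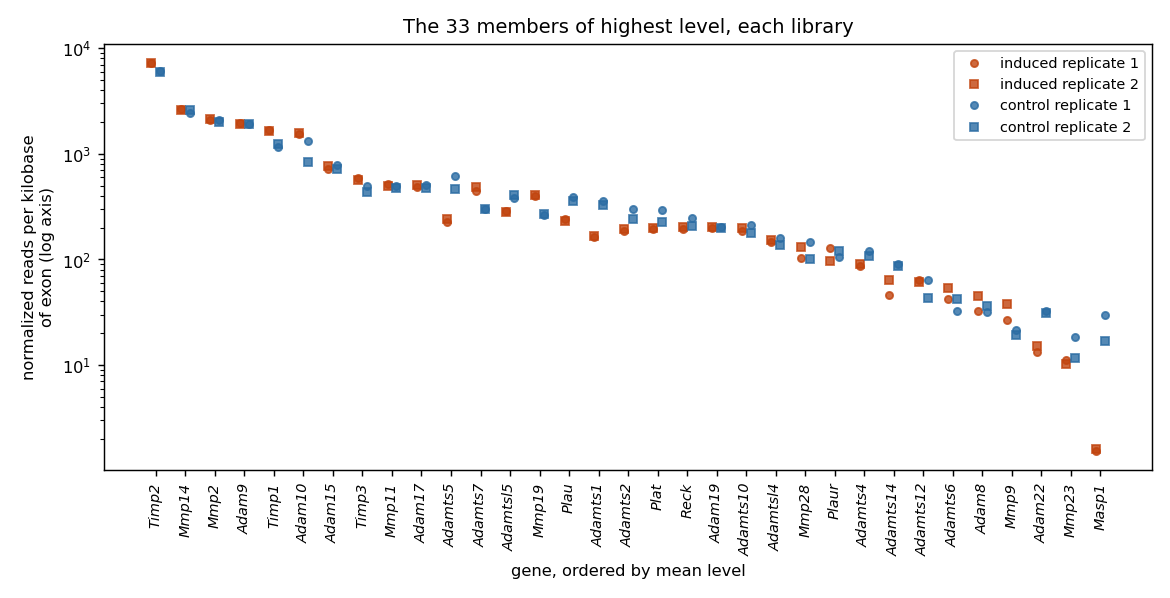
Normalized reads per kilobase of exon (log axis) in each library for the 33 genes of highest level, ordered by mean, induced to the left of control. Timp2 leads at 5988 to 7178, and Masp1, the last shown, has its induced libraries far below its controls.

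Among secreted matrix metalloproteases, Mmp19 rose and the other 4 did not pass. Mmp19 (ENSMUSG00000025355), which cuts basement membrane proteins, had 1402 and 1443 normalized reads in induced cells, against 924 and 943 in control cells. Both induced libraries lay above both controls, with a 1.52-fold difference (1422 ± 29.3 and 933 ± 12.9, SD, n = 2 each; log2 fold change 0.61, SE 0.08, limma adjusted p = 0.0226). It missed the threshold whichever of the 4 libraries was left out (log2 fold change 0.59 to 0.63, adjusted p = 0.0506 to 0.0891) and without the filter (0.051). In Mmp19, 22.3% of the exon length lies opposite exons of Tmem198b, and the kit does not mark strand; Tmem198b had 644 and 715 in induced cells and 897 and 957 in control cells. Mmp9, a gelatinase known for synaptic plasticity, was scarce, with 94.6 and 134.5 in induced cells against 75.5 and 68.5 in control cells. These libraries did not overlap either, but limma gave an adjusted p of 0.248 (log2 fold change 0.64, SE 0.25). Mmp2, the other gelatinase, had 7006 and 7205 in induced cells and 7013 and 6746 in control cells, and its groups overlapped (log2 fold change 0.05, adjusted p = 0.719). Mmp11 averaged 1395 ± 44.2 in induced cells and 1354 ± 34.8 in control cells (adjusted p = 0.806). Mmp28, or epilysin, averaged 456 ± 74.1 in induced cells and 476 ± 124 in control cells (adjusted p = 0.925).

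Of the 4 membrane-bound members only Mmp14, the main activator of the Mmp2 precursor, was tested. It had 15847 and 15341 normalized reads in induced cells and 14581 and 15407 in control cells, and the groups overlapped (log2 fold change 0.06, SE 0.06, adjusted p = 0.660). Mmp23 had 24 and 26 reads in induced cells and 34 and 26 in control cells, while Mmp15 and Mmp24 had at most 5 reads in any library.

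Of the 10 tested ADAM genes 1 fell, Adam22, and 9 did not pass. Adam22 (ENSMUSG00000040537) encodes a protein without protease activity that serves as a neuronal receptor for the secreted protein Lgi1. It had 191 and 217 normalized reads in induced cells, against 464 and 451 in control cells. Both induced libraries lay below both controls, and the control mean was 2.24 times the induced mean (204 ± 18.1 and 457 ± 9.38, SD, n = 2 each; log2 fold change -1.16, SE 0.13, limma adjusted p = 0.0165). Without control replicate 1 the adjusted p was 0.0549, with a log2 fold change of -1.14.

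Of the ADAM genes that did not pass, Adam17, Adam9, Adam19 and Adam15 had close values in both groups. Adam17, which releases tumour necrosis factor, had 3458 and 3596 normalized reads in induced cells and 3608 and 3388 in control cells. Adam9 had 7971 and 7873 in induced cells and 7882 and 7843 in control cells. Adam19, known for work on neuregulin, had 1420 and 1433 in induced cells and 1436 and 1420 in control cells. In these 3 genes the highest library was at most 1.06 times the lowest, and their groups overlapped. Adam15 also overlapped, with 4576 ± 253 in induced cells and 4620 ± 279.5 in control cells. Adam10, the main alpha-secretase of the amyloid precursor and a sheddase of Notch, differed more. It had 7545 and 7708 in induced cells, against 6504 and 4120 in control cells. Its induced libraries lay above both controls, yet the controls stood far apart and the gene did not pass (log2 fold change 0.56, SE 0.20, adjusted p = 0.221). Its value turned on the controls: without control replicate 2 the log2 fold change was 0.23 (adjusted p = 0.171), and without control replicate 1 it was 0.89 and the gene was called (adjusted p = 0.0114). Adam33 had 29.4 and 50.1 in induced cells, against 69.2 and 53.7 in control cells, without overlap and without passing (log2 fold change -0.65, SE 0.35, adjusted p = 0.380). Without induced replicate 1 its log2 fold change was -0.28, and without induced replicate 2 it was -1.03. Adam8, Adam11 and Adam1a averaged at most 180.4 normalized reads in induced cells and 157.9 in control cells and did not pass (adjusted p from 0.507 to 0.903). Adam1a shares 63.7% of its exon length with Gm42878, so its count is uncertain, and 20.6% of that of Adam15 lies opposite 4731419I09Rik, which had at most 109 normalized reads.

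**Figure D3:**
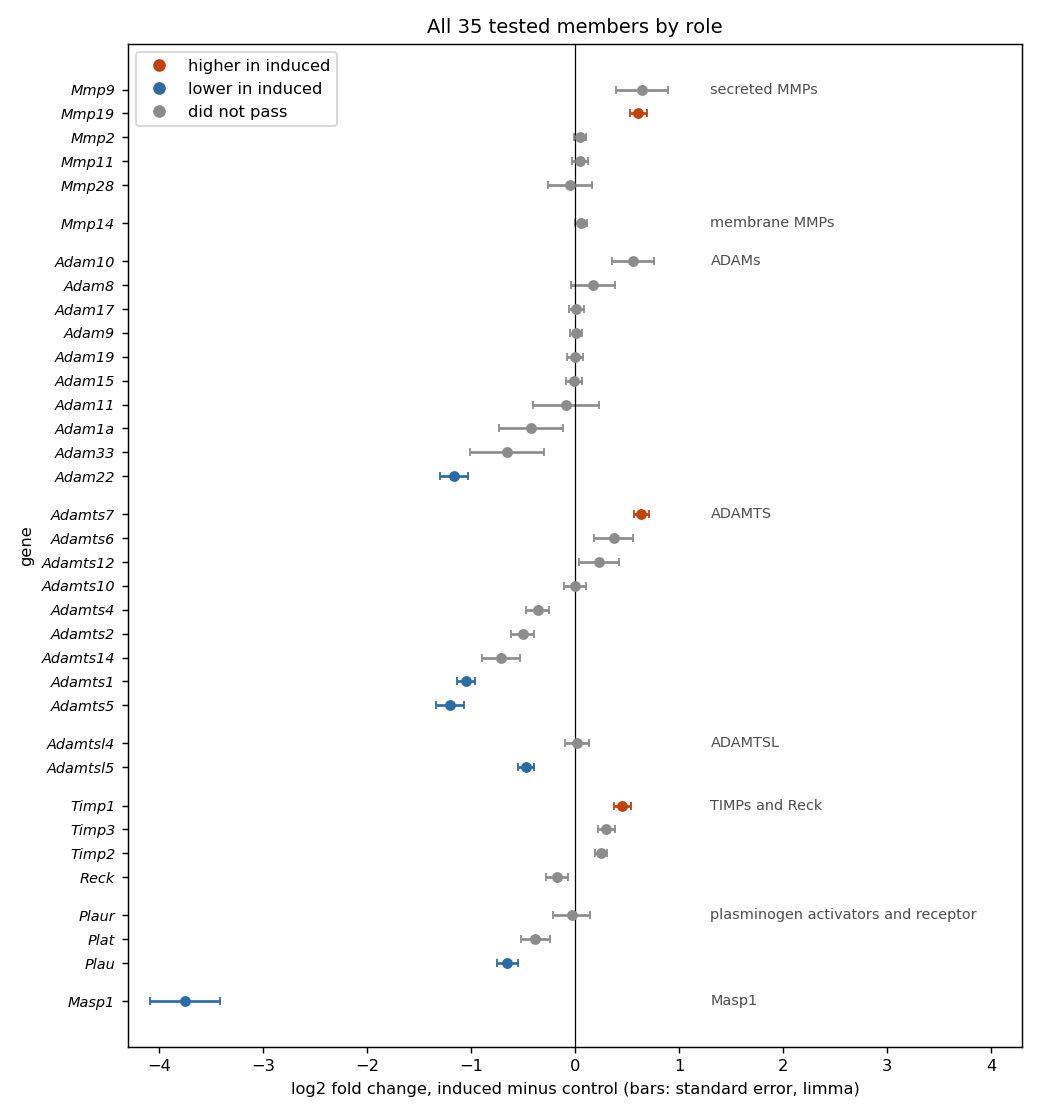
Log2 fold change, induced minus control, of the 35 tested genes grouped by role, with standard errors from limma; colours mark genes past the threshold. Adam9, Adam15, Adam17 and Adam19 lie close to 0, whereas ADAMTS genes run from -1.20 (Adamts5) to 0.64 (Adamts7).

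The ADAMTS genes were spread to both sides, with 2 lower, 1 higher and 6 of the 9 tested not past the threshold, and their median log2 fold change was -0.36. The 2 that fell, Adamts5 and Adamts1, encode proteases that cut the proteoglycans aggrecan and versican. Adamts5 (ENSMUSG00000022894) had 2453 and 2593 normalized reads in induced cells, against 6663 and 5042 in control cells. The control mean was 2.32 times the induced mean (2523 ± 98.9 and 5853 ± 1146, SD, n = 2 each; log2 fold change -1.20, SE 0.13, adjusted p = 0.0158). Adamts1 (ENSMUSG00000022893) had 859 and 878 in induced cells, against 1886 and 1719 in control cells. Its control mean was 2.08 times the induced mean (869 ± 13.6 and 1802 ± 118; log2 fold change -1.05, SE 0.09, adjusted p = 0.00698). In both genes the induced libraries lay close together and well below the controls, and the calls held in all 11 alternative settings tried for them. Adamts4, another aggrecanase, had 419 and 432 in induced cells, against 576 and 519 in control cells, without overlap but short of the threshold (log2 fold change -0.36, adjusted p = 0.170).

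Adamts7 (ENSMUSG00000032363), which cuts cartilage oligomeric matrix protein, rose. It had 2784 and 3045 normalized reads in induced cells, against 1871 and 1872 in control cells, a 1.56-fold difference (2914 ± 184.5 and 1872 ± 0.946, SD, n = 2 each; log2 fold change 0.64, SE 0.08, adjusted p = 0.0180). Both induced libraries lay above both controls; without induced replicate 2 the adjusted p was 0.0593. Adamts12, its closest relative, had 677 ± 19.4 in induced cells and 587 ± 161 in control cells, and its groups overlapped (adjusted p = 0.559). The procollagen-processing genes Adamts2 and Adamts14 had lower values in induced cells without passing. Adamts2 had 1722 and 1804 in induced cells, against 2778 and 2254 in control cells (log2 fold change -0.51, adjusted p = 0.0823), and it was called without control replicate 2 (-0.66, adjusted p = 0.0352). Adamts14 had 239 and 331 in induced cells, against 474 and 449.7 in control cells (log2 fold change -0.71, adjusted p = 0.112). Adamts10 and Adamts6, a related pair linked to fibrillin microfibrils, did not pass either: the log2 fold change was -0.0042 for Adamts10 (adjusted p = 0.986) and 0.37 for Adamts6 (adjusted p = 0.354).

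Per kilobase of exon, the 13 ADAMTS genes summed to 1448 and 1559 in induced cells, against 2094 and 1797 in control cells. Adamts5 made up 15.7% and 15.4% of that sum in induced cells and 29.5% and 26.0% in control cells. Adamts7 made up 30.6% and 31.1% in induced cells and 14.2% and 16.6% in control cells, so the leading ADAMTS gene per kilobase was Adamts7 in induced cells and Adamts5 in control cells. These sums are not part of the fit across genes and are given as values. An exact two-sided permutation test of 2 libraries against 2 cannot go below a p of 0.333.

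Adamts1 and Adamts5 are neighbours on chromosome 16, 53.1 kb apart in the GENCODE M21 annotation (GRCm38), and Masp1 lies elsewhere on the same chromosome. Chromosome 16 stood apart in this comparison. Of its 403 tested genes, 85 were called higher in induced cells (21.1%) and 6 lower (1.49%). Among the 12873 tested genes of all other chromosomes the shares were 1.48% and 1.34%. Log2 fold changes were above 0 for 339 of the 403 and below 0 for 64. Its median log2 fold change was 0.31, whereas the medians of the other chromosomes with at least 100 tested genes lay between -0.09 and 0.05. Adamts1, Adamts5 and Masp1 were 3 of the 6 genes called lower there, with St6gal1, Gm45338 and Kpna1. Within 2 Mb of the start of Adamts1, the 12 other tested genes had log2 fold changes from -0.09 to 0.56 with a median of 0.11, and adjusted p-values from 0.171 to 0.904. Adamts1 and Adamts5 thus fell among neighbours that did not pass the threshold. The part of the chromosome's shift in these values was not tested.

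Masp1 (ENSMUSG00000022887), which encodes a serine protease of the lectin pathway of complement, had the most negative log2 fold change of the 35 tested genes of the family. It had 15.2 and 15.8 normalized reads in induced cells, against 291.7 and 167 in control cells, that is 14 and 17 reads before scaling in induced cells and 232 and 159 in control cells. The control mean was 14.8 times the induced mean (15.5 ± 0.383 and 230 ± 87.9, SD, n = 2 each; log2 fold change -3.75, SE 0.33, adjusted p = 0.00898). Masp1 reached the filter through its control libraries alone, since both induced libraries lay under 1 CPM, so its place among the tested genes rests on the controls; without any filter its adjusted p was 0.0248. The induced libraries were nearly equal and the controls differed, and the call held in the 10 alternative settings in which Masp1 was tested. Its 3 nearest tested genes lay below 0 as well, and 2 of them fell. Gm45338, a gene model that starts 0.605 kb from it, had 1.09 and 7.42 in induced cells against 61.6 and 90.6 in control cells (log2 fold change -4.17, adjusted p = 0.0458). Like Masp1, Gm45338 reached the filter through its control libraries alone, since both induced libraries lay under 1 CPM. St6gal1, a sialyltransferase gene whose start is 296 kb away, had 102 and 127 in induced cells against 396 and 282 in control cells (log2 fold change -1.54, adjusted p = 0.0282). Rtp4, whose start is 0.524 kb from that of Masp1, had 102 and 69.6 in induced cells against 142 and 133 in control cells and did not pass (adjusted p = 0.213). The other tested genes within 2 Mb of Masp1 were mostly above 0: of 22 neighbours in all, 5 had a log2 fold change below 0, and the median was 0.25. Of these, 2 rose, Senp2 (0.41, adjusted p = 0.0353) and Dnajb11 (0.40, adjusted p = 0.0412). These neighbours were named for their position after their values were seen.

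**Figure D4:**
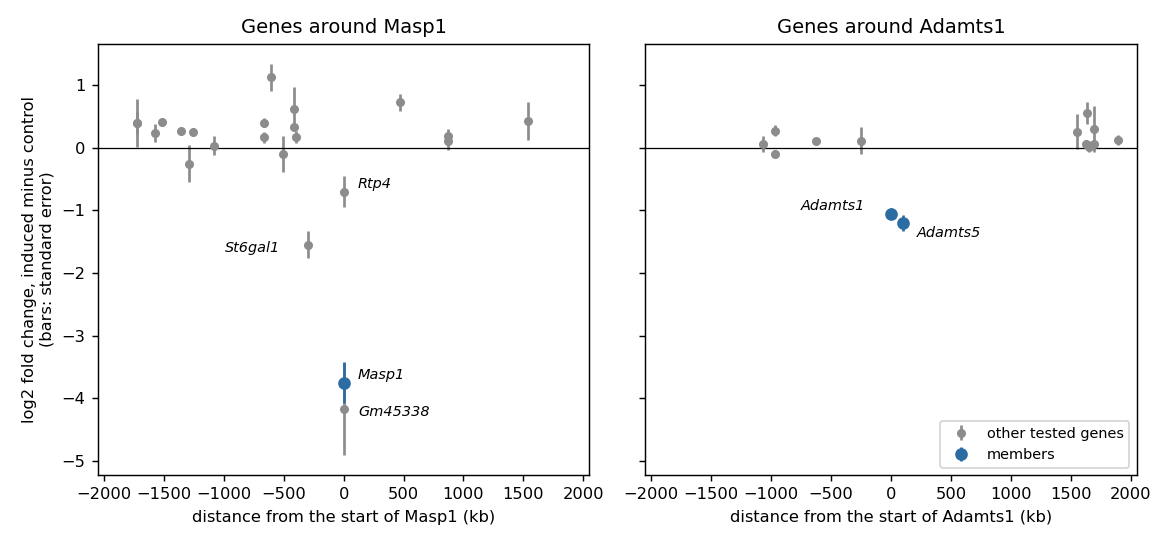
Log2 fold change, induced minus control, with standard error, of tested genes on chromosome 16 by distance in kb from the start of Masp1 (left) and of Adamts1 (right). Masp1, Gm45338 and St6gal1 lie far below 0 together, while Adamts1 and Adamts5 lie below 0 among neighbours between -0.09 and 0.56. Masp1 and Gm45338 reached the filter through their control libraries alone.

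Of the ADAMTS-like genes, Adamtsl5, whose protein binds fibrillin, fell and Adamtsl4 did not pass. Adamtsl5 (ENSMUSG00000043822) had 1355 and 1335 normalized reads in induced cells, against 1792 and 1943 in control cells, without overlap (log2 fold change -0.47, SE 0.08, adjusted p = 0.0399). The call was lost whichever library was left out (-0.53 to -0.41, adjusted p = 0.0641 to 0.140) and without the filter (0.0817). Adamtsl4, whose human counterpart is tied to displacement of the eye lens, had 633 ± 20.2 in induced cells and 628 ± 67.2 in control cells (adjusted p = 0.954).

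Among inhibitors, Timp1 rose, and Timp2, Timp3 and Reck did not pass. Timp1 (ENSMUSG00000001131), an inhibitor of matrix metalloproteases, had 1480 and 1449 normalized reads in induced cells, against 1035 and 1103 in control cells. The induced libraries lay above both controls, with a 1.37-fold difference (1464 ± 22.2 and 1069 ± 47.9, SD, n = 2 each; log2 fold change 0.45, SE 0.08, adjusted p = 0.0467). The call was lost whichever library was left out (0.41 to 0.50, adjusted p = 0.0753 to 0.183), without the filter (0.0907) and, in a setting added after the data were seen, without the genes of chromosome 16 (0.0569). Timp2 had 27966 in each induced library, against 23786 and 23329 in control cells (log2 fold change 0.25, SE 0.06, adjusted p = 0.0865). Timp3, the inhibitor that binds the matrix and also blocks Adam17 and aggrecanases, had 4760 and 4564 in induced cells, against 4030 and 3552 in control cells (log2 fold change 0.30, SE 0.08, adjusted p = 0.133); 21.3% of its exon length lies opposite exons of Syn3, which had at most 16.9 normalized reads. Reck, a membrane-anchored inhibitor, had 932 and 977 in induced cells, against 1172 and 991 in control cells (log2 fold change -0.18, adjusted p = 0.443). Per kilobase, Timp genes summed to 9429 and 9370 in induced cells, against 7765 and 7666 in control cells, and the 9 Mmp genes to 5790 and 5791 in induced cells, against 5471 and 5463 in control cells. The ratio of the Timp to the Mmp sum was 1.63 and 1.62 in induced cells and 1.42 and 1.40 in control cells. Timp2 alone, which did not pass, gave 76.1% and 76.6% of the Timp sum in induced cells and 78.6% and 78.1% in control cells. The sums and their ratio are not part of the fit across genes and are given as values.

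Both plasminogen activators had lower values in induced cells, and Plau passed the threshold. Plau (ENSMUSG00000021822), or urokinase, had 576 and 550 normalized reads in induced cells, against 933 and 840.4 in control cells. The control mean was 1.57 times the induced mean (563 ± 18.6 and 887 ± 65.5, SD, n = 2 each; log2 fold change -0.65, SE 0.10, adjusted p = 0.0347). The call was lost whichever library was left out (-0.73 to -0.58, adjusted p = 0.0581 to 0.117) and without the filter (0.0703). Plat, the tissue-type activator known for its work in hippocampal plasticity, had 1223 and 1245 in induced cells, against 1851 and 1401 in control cells (log2 fold change -0.38, SE 0.14, adjusted p = 0.223). Its value was -0.18 without control replicate 1 and -0.58 without control replicate 2 (adjusted p = 0.409 and 0.0525). Plaur, the urokinase receptor, had 334 and 253 in induced cells and 278 and 318 in control cells, and its groups overlapped (adjusted p = 0.939).

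The 18 members below the filter had few reads. Adamts20, Adam4 and Adamts16 had at most 37 reads in a library and, with Mmp23, were the 4 that reached 20 reads in any. Adamts20 had 23 and 28 reads in induced cells and 32 and 37 in control cells, Adam4 had 33 and 18 in induced cells and 16 and 22 in control cells, and Adamts16 had 23 and 21 in induced cells and 20 and 19 in control cells. Adamtsl2 had 19 and 9 reads in induced cells and 0 and 10 in control cells. The neuronal Adam23 had 0 reads in induced cells and 3 in 1 control library, and Serpine2, the inhibitor of plasminogen activators and thrombin that neurons and glia secrete, had 0 in induced cells and 5 in 1 control library. Timp4 had 2 reads in 1 induced library and 0 elsewhere. None of these was tested, and a count of 0 allows up to 3 reads, counting error only.

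Genes of the pathway outside the family were read from lists that were chosen with earlier results of these data known. Over all 13276 tested genes, 2.08% were called higher and 1.34% lower. Of 10 tested convertase and ADAM maturation genes, Tspan5 fell. It encodes a tetraspanin that carries Adam10 to the cell surface, and it had 923 and 1049 normalized reads in induced cells against 2004 and 1790 in control cells (log2 fold change -0.94, SE 0.10, adjusted p = 0.0143). Sh3pxd2a, a scaffold of invadopodia, had 10809 in induced cells and 10245 in control cells (adjusted p = 0.639). Of 16 tested ADAM substrates 3 rose and 1 fell. Log2 fold changes were above 0 for 14 of these 16, beside 6691 of the 13276 tested genes. The median was 0.25 for the 16 and 0.0025 over all tested genes. Both figures take in Areg and Btc, which reached the filter through their induced libraries alone, so they are no test of direction. Areg had 52.2 and 49.2 in induced cells against 16.3 and 29.5 in control cells. Substrates below the filter, with differences to both sides, are left out of both figures. Ereg, a ligand of the epidermal growth factor receptor, had 605 and 713 in induced cells against 250.2 and 269 in control cells (log2 fold change 1.34, adjusted p = 0.0105). Btc, another such ligand, had 67.4 and 56.6 in induced cells against 16.3 and 15.8 in control cells (log2 fold change 1.88, adjusted p = 0.0404). Btc reached the filter through its induced libraries alone, since both control libraries lay under 1 CPM, so its place among the tested genes rests on the induced group. Tnfrsf1b, a tumour necrosis factor receptor gene, rose, with 5029 and 4945 in induced cells against 3892 and 3804 in control cells (adjusted p = 0.0364), and Jag1, a Notch ligand gene, fell, with a log2 fold change of -1.04 (adjusted p = 0.0288). Axl had the highest level of those not called (25686 in induced cells and 21739 in control cells, adjusted p = 0.126).

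Among matrix partners of ADAMTS proteins, Vcan, the versican substrate of Adamts1 and Adamts5, rose 1.48-fold, with 43226 and 43974 normalized reads in induced cells against 31864 and 27080 in control cells (adjusted p = 0.0348). Tnc, the tenascin C gene of the same list, fell, with a log2 fold change of -0.81 (adjusted p = 0.0406), and Hapln4 did not pass (adjusted p = 0.667). Of 5 fibrillins and latent TGF-beta binding proteins, Ltbp1 rose 1.57-fold (adjusted p = 0.0246) and Fbn1 had 9088 in induced cells and 8393 in control cells (adjusted p = 0.502). Of 13 AP-1 and ETS factors, Junb rose 1.60-fold (adjusted p = 0.0226), and Fosl2 had 4698 in induced cells and 3907 in control cells (adjusted p = 0.0951). Of 7 other zinc metalloproteases, Ece2 on chromosome 16 rose and Cpe fell, with log2 fold changes of 0.40 and -0.32 and an adjusted p of 0.0492 and 0.0491, while Cpd had 10849 in induced cells and 11098 in control cells (adjusted p = 0.844). Limma called 0 of 7 cathepsins and 0 of 9 complement genes, with Ctsl and C3 of highest level (adjusted p = 0.595 and 0.212). At an unadjusted limma p under 0.05 there were 2 and 2, beside 2535 of all 13276 tested genes. Limma voom called 0 and 0, beside 455 over all tested genes. Of the pathway genes named here as called, Tspan5 and Ereg kept the call without any 1 library, whereas Cpe, Ece2, Jag1, Tnfrsf1b and Btc lost it whichever was left out (adjusted p up to 0.201). Cpe also missed the threshold with limma voom (adjusted p = 0.0524). Without the filter, all of those named as called but Tspan5 and Ereg missed it (adjusted p from 0.0520 for Junb to 0.0969 for Cpe). Junb lost it without replicate 1 of either group, Ltbp1 without induced replicate 1 or 2 or control replicate 1, and Tnc and Vcan without either induced replicate (adjusted p up to 0.0995).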

How the data were processed

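Total RNA, isolated with Trizol, was made into libraries with TruSeq RNA v2, a kit without strand marking (kit name per the labels' protocols). HISAT, Cufflinks and mm9 are listed, with no version, per the submitters' processing notes; which tool counted reads and how values were scaled is not given in the sources used here. Log2 values were deposited by the authors and were tested and found to be log2(normalized reads + 1): with 1 subtracted after raising 2 to each value, 100% were whole multiples of 1 step per library (tolerance 0.01). Reads so recovered gave CPM for the filter. Limma 3.58.1 in R 4.3.3 (trend, group as the only term, two-sided) was run on the deposited log2 values of all 13276 genes whose mean reached 1 CPM (25.8 to 35.3 reads per library). The pseudocount of 1 understates changes of low genes. The fit was tested on simulated data. Exon lengths, overlaps and chromosomes come from GENCODE M21 (GRCm38), where 24591 genes matched by ID, and not from mm9. Promoters come from RefSeq. The members and lists were chosen with earlier results of these data known. Named were all members past the threshold, the leading others of each role, members below the filter with at least 20 reads, and in each list up to 4 called genes and 1 other. The other tested members, and some with fewer reads, are named outside that rule, after their values were seen. Results that need an item withheld for evaluation are not reported here. Alternatives changed the filter, pseudocount, scaling, test, replicate term or libraries.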

Additional observations from a re-analysis of the deposited data

How the results depend on the processing

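Over all genes, 276 higher and 178 lower became 100 and 59 without a filter, and 157 and 104 with a replicate block. Higher genes numbered 170 without chromosome 16 (chosen after seeing the data), and leaving out 1 library gave 113 to 204 higher and 78 to 136 lower. Members higher (3) became 1 without a filter and 0 to 2 without 1 library (limma; at the 0, without induced replicate 2, 5 had an unadjusted p under 0.05). Members lower (6) became 3 without chromosome 16, where 3 of them lie, and 3 to 5 without 1 library. Fits without a library leave 1 sample in a group, assumed to vary like the other group, and have fewer degrees of freedom. Whether replicate numbers pair the libraries is not given in the labels. The correlation of same-numbered deviations was -0.0951, which cannot decide it, as it rests on 2 pairs. With the replicate block, Plau, Adamtsl5 and Timp1 missed the threshold (adjusted p = 0.0544, 0.0758 and 0.0916), and without a filter so did Mmp19, Plau, Adamtsl5 and Timp1 (0.0510 to 0.0907). The block also ended the calls of Jag1, Vcan, Btc, Tnfrsf1b, Ece2 and Cpe (0.0542, 0.0641, 0.0860, 0.0882, 0.101 and 0.123). The cause of these losses was not tested.

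No called member changed sign in any setting. Of the 26 that were not called, 10 did when 1 library was left out, with log2 fold changes of -0.33 to 0.15 for Adam11, -0.0754 to 0.0481 for Adam15, -0.0330 to 0.0576 for Adam17, -0.0097 to 0.0069 for Adam19, -0.0602 to 0.41 for Adam8, -0.12 to 0.11 for Adamts10, -0.0497 to 0.52 for Adamts12, -0.0934 to 0.12 for Adamtsl4, -0.31 to 0.22 for Mmp28 and -0.23 to 0.17 for Plaur. Adamts10 was at 0.0032 with limma voom. Masp1 could not be tested with the filter of 5 CPM.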
